A study of Mus musculus with 6 samples.

Results

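Caveolae and fenestral diaphragms of endothelial cells are described here through 10 genes: Plvap, the caveolins Cav1, Cav2 and Cav3, the cavins Cavin1, Cavin2 and Cavin3, and the caveola neck proteins Ehd2, Ehd4 and Pacsin2. The choice rested on their known roles and its rule used no measured value, although earlier results of these data were known. Their probes were found through the RefSeq accession that the array files give for each probe, which yielded 14 of the 56605 probes other than controls and 10 of the 22911 genes named on the array. Of the 10 genes, 7 had 1 probe and 3 had several.

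Caveolae are flask-shaped pits of the plasma membrane. Caveolins form the coat of the pit, cavins join it from the cytoplasm, and EHD ATPases and the F-BAR protein PACSIN2 sit at its neck. In the capillaries of the intestinal mucosa the endothelium is also pierced by fenestrae, and PLVAP is the protein from which the diaphragms that span fenestrae and many caveolae are built.

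Total RNA was measured on one-color Agilent arrays, with 3 samples of blood vascular endothelial cells (VECs) and 3 of lymphatic endothelial cells (LECs) from the small intestine of female mice. Both populations were gated as CD45- CD31+ cells, the VECs as CD90- and the LECs as CD90+, and each sample held at most 10000 sorted cells. No treatment, transgene or deletion is named for either group, and the strain and age of the mice behind the arrays are not given in the sources used here. The samples are numbered VEC 2, 3 and 4 and LEC 6, 7 and 8. The free-text description of the LEC samples names VECs, so the grouping follows their titles and source names. No label says that the samples came from separate mice, so the p-values measure the spread between these samples, which may be technical. Fewer cells with a transcript and less transcript per cell cannot be told apart in such pooled RNA.

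The defining markers followed the labels. The summed signal of 7 lymphatic markers (including Prox1, Lyve1 and Pdpn), in multiples of each array's 75th percentile signal, was 2.71 to 3.37 in VECs and 1297 to 1335 in LECs, and that of 8 blood vascular markers (including Flt1, Esm1 and Cd34) was 1325 to 1466 in VECs and 136 to 144 in LECs. The blood vascular sum in LECs came mainly with Emcn (57713 to 64732 units in VECs and 40334 to 50233 in LECs), which was 1.54-fold lower there. Flt1, Esm1 and Cd34 were 59.0-, 77.6- and 45.1-fold lower in LECs. All 7 lymphatic and all 8 blood vascular markers passed the test in the direction of their group. Reln, a lymphatic marker, was not well above background in any VEC sample. Among 7 pan-endothelial markers 5 had a lower signal in LECs, whereas Tie1 and Egfl7 did not pass. Of all tested genes, 34.9% were higher and 32% lower in LECs. The 75th percentile signal was 333 to 375 intensity units in VECs and 381 to 441 in LECs, and the software's mark for a signal well above background began at 12.1 to 25.1 units depending on the array.

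Of the 10 genes, 9 were well above background on all 6 arrays and were tested. In LECs 3 of them were higher (Cavin2, Pacsin2 and Cav2) and 4 were lower (Plvap, Ehd4, Cavin3 and Cavin1), while Cav1 and Ehd2 did not pass the test. Over all 14971 tested genes, 34.9% were higher and 32% were lower in LECs by the same criterion, a Benjamini-Hochberg adjusted p under 0.05 from limma over all tested probes. The normalized signals of the 2 groups did not overlap for the 4 lower and the 3 higher genes, against 35.9% of all tested genes that were lower and 39.1% that were higher without overlap. The number of members that changed was thus near the background of this comparison. The sizes ran from 37.4-fold lower to 3.27-fold higher in LECs. The median LEC minus VEC difference of the 9 genes was -0.35 on the log2 scale, against 0.017 over all tested genes. This median was the value of Ehd2, a gene that did not pass, so it gives no direction for the set.

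**Figure D1:**
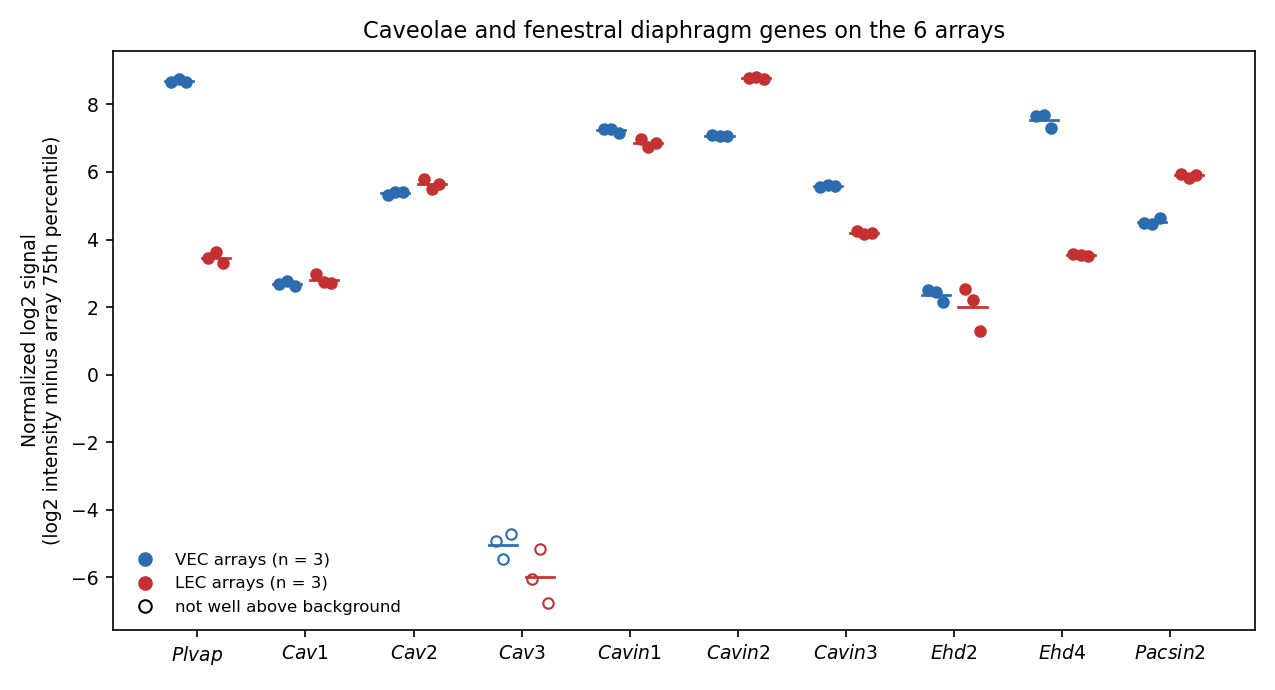
Normalized log2 signal (log2 intensity minus the array's 75th percentile, y axis) of the 10 genes on each VEC array (blue, n = 3) and each LEC array (red, n = 3), with lines at the group means and open symbols for signals not well above background. Plvap and Ehd4 stood far lower in LECs, Cavin2 and Pacsin2 stood higher, and Cav1 and Ehd2 overlapped. Heights of different genes come from different probes and are not to be compared.

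Plvap, the diaphragm protein, was the member with the largest difference. Its intensity was 146511, 142478 and 152122 on the arrays of VEC 2, 3 and 4 and 4697, 4741 and 4386 on those of LEC 6, 7 and 8 (probe A_51_P414653). Every VEC array stood far above every LEC array, and the samples within a group were close to each other. On the normalized log2 scale the level was 8.69 ± 0.046 (SD, n = 3) in VECs and 3.47 ± 0.16 (SD, n = 3) in LECs. The difference of -5.22 ± 0.097 (SE, 95% confidence interval -5.46 to -4.99) amounted to a 37.4-fold higher signal in VECs, with an adjusted p of 5.8e-07 (limma). Of all 33776 tested probes, 123 (0.364%) were further toward VECs. Plvap remained well above background on all 3 LEC arrays, so that a signal was measured in the lymphatic samples too. All 8 blood vascular markers were also well above background on every array. Whether the Plvap signal in the LEC samples came from LECs or from VECs among them was not tested.

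The caveolins differed little between the populations. Cav1, the scaffold without which endothelial caveolae do not form, had intensities of 2306, 2252 and 2336 in VECs and 3416, 2558 and 2866 in LECs (probe A_55_P2126662). Before scaling, every LEC intensity stood above every VEC intensity, and the difference without scaling was 0.35 on the log2 scale (limma adjusted p = 0.052). After scaling, the groups overlapped, with LEC 6 above the VEC arrays and LEC 7 and LEC 8 among them. The scaled difference was 0.12 ± 0.095 (SE) on the log2 scale and did not pass the test (adjusted p = 0.3), and its 95% confidence interval ran from -0.11 to 0.35. The other Cav1 probe (A_65_P07350) read 1325, 1286 and 1400 in VECs and 1874, 1351 and 1565 in LECs, with a difference of 0.017 (interval -0.22 to 0.26, adjusted p = 0.89). The value with the first probe was 0.30 in LEC 6, the LEC sample on the same slide row as the VEC samples. It was 0.035 in the mean of LEC 7 and LEC 8, which lay on the other row. No VEC sample lay on that other row, so a fit blocked on the row takes its difference from LEC 6 alone. Blocking on the slide row thus gave 0.30, which passed narrowly as higher in LECs.

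Cav2, which binds to Cav1 and is carried to the surface with it, was 1.21-fold higher in LECs by its brightest probe (A_55_P2908124). The intensities were 14385, 14004 and 15929 in VECs and 24097, 17247 and 22182 in LECs. No LEC array lay below a VEC array. The difference was 0.28 ± 0.093 (SE, adjusted p = 0.038). The call was lost when VEC 2 (0.25, adjusted p = 0.12), VEC 3 (0.29, 0.086), VEC 4 (0.30, 0.064), LEC 6 (0.20, 0.084) or LEC 8 (0.28, 0.092) was left out. The other probes gave 0.50 (A_52_P55846, a dim probe at 99.1 to 134 units in VECs and 172 to 213 in LECs, adjusted p = 0.0037) and 0.19 (A_51_P279552, 3099 to 3610 units in VECs and 3473 to 5508 in LECs, adjusted p = 0.22). The probes thus shared a direction but not the call.

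Cav3, the caveolin of muscle, read 12.0, 7.64 and 14.2 units in VECs and 6.50, 10.6 and 4.04 in LECs (probe A_51_P255304). None of the 6 signals was well above background, so the gene was not tested and no fold change is given. Among 6 striated muscle markers, Ckm and Mb were likewise not well above background in any sample. Acta1 (161 to 299 units over both groups), Myl1 (227 to 260) and Actn2 (41.1 to 95.1) were well above background on all 6 arrays. Myh6 was so on some arrays only.

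**Figure D2:**
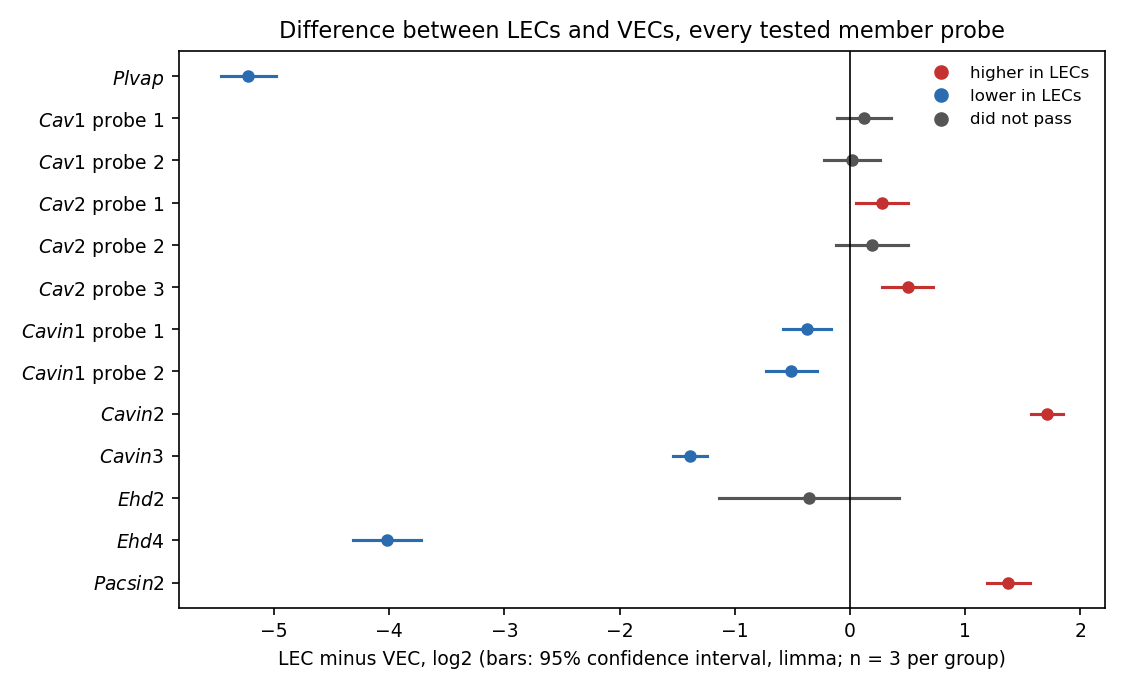
LEC minus VEC difference on the log2 scale (x axis) for each of the 13 tested probes of the 9 genes, with 95% confidence intervals from limma (n = 3 per group), red where higher in LECs, blue where lower and gray where the test was not passed. The Plvap and Ehd4 intervals lay far to the left, and the Cav1, Cav2 and Cavin1 probes lay between -0.51 and 0.50.

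Cav2 and Cav1 are neighbors on chromosome 6 in the GRCm38.p6 annotation, on the same strand, with 17204 bases between them. Within an array the Cav1 to Cav2 signal ratio changed by -0.16 on the log2 scale from VECs to LECs, and the arrays of the groups overlapped. Because these neighbors had like differences, the 250 bases upstream of their annotated starts are shown (RefSeq, GRCm38.p6, + strand, 5′ to 3′). The Cav2 window is chr6:17280935-17281184 and the first of the 2 Cav1 windows is chr6:17306085-17306334. Capitals mark exact matches on either strand to any of 6 short words, the GC box GGGCGG, the TATA box TATAAA, the ETS words CCGGAA and CAGGAA, the GATA word AGATAA and the SOX word ACAAAG.
Cav2: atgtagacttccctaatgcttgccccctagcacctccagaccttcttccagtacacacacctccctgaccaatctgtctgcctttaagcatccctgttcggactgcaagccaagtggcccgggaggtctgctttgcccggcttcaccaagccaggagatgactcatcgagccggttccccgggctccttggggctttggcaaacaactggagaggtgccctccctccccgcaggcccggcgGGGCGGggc
Cav1: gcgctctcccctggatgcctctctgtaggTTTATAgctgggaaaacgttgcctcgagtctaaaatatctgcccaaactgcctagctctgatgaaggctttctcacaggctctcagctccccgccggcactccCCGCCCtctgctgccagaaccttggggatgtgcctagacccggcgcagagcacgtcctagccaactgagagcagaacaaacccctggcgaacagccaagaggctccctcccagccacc
Each window held 1 GC box, at positions -9 to -4 from the start in Cav2 and at -118 to -113, read on the opposite strand, in Cav1. The Cav1 window also held a TATA box word at -221 to -216, on the opposite strand. GC made up 62% of the Cav2 and 59.6% of the Cav1 window, against a median of 52.4% over all 32851 windows of the table. A GC box was in 32.7% of all windows and the TATA box word in 12.4%, so these matches are descriptions of common words. Of the 10 genes, 8 had a window. Plvap and Cavin3 had none.

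The 3 tested cavins differed from each other. Cavin1, needed together with caveolins to form the pit, was slightly lower in LECs after scaling. Its main probe (A_51_P237752), printed in 10 spots per array, gave mean intensities of 56107, 51330 and 53226 in VECs and 54219, 40670 and 51601 in LECs. These intensities overlapped between the groups, and after scaling to the 75th percentile they did not. The scaled difference was -0.37 ± 0.085 (SE), or 1.29-fold lower in LECs (adjusted p = 0.0098), and the spots of 1 array scattered with an SD of 0.064 to 0.087 on the log2 scale. A second, dim probe (A_52_P457839) read 101 to 121 units in VECs and 85.2 to 100 in LECs, with a difference of -0.51 ± 0.090 (SE, adjusted p = 0.0034). Without scaling between arrays the main probe had a difference of -0.14 (adjusted p = 0.40) and the second of -0.28 (0.083), so the call for Cavin1 rested on the scaling. With the row of the slide added as a block, the main probe gave -0.26, a value from LEC 6 alone, and did not pass.

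Cavin2, a cavin that shapes the curved membrane, was higher in LECs. Its intensity was 49126, 44849 and 49807 in VECs and 188997, 170946 and 189984 in LECs (probe A_51_P277336). The groups were far apart and each was tight, with normalized levels of 7.07 ± 0.017 (SD, n = 3) in VECs and 8.78 ± 0.030 (SD, n = 3) in LECs. The difference of 1.71 ± 0.057 (SE, interval 1.57 to 1.85) was a 3.27-fold higher signal in LECs (adjusted p = 3.3e-06), the largest rise among the 9 tested members.

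Cavin3, a cavin first known as a protein kinase C delta binding protein, went the other way. It read 17000, 16185 and 18153 units in VECs and 8212, 6786 and 8054 in LECs (probe A_55_P2914348). All LEC arrays were below all VEC arrays. The difference was -1.39 ± 0.060 (SE, interval -1.53 to -1.24), or 2.61-fold lower in LECs (adjusted p = 9.0e-06). Within an array the log2 ratio of the Cavin2 to the Cavin3 signal was 1.46 to 1.53 in VECs and 4.52 to 4.65 in LECs, a change of 3.09. Such a ratio does not depend on the scaling between arrays, and only its change, not its level, can be read across different probes.

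The neck proteins split as well. Ehd4, an EHD ATPase also found on endosomes, was 16.2-fold lower in LECs. It read 73771, 69006 and 58834 units in VECs and 5079, 4447 and 4991 in LECs (probe A_51_P455807). VEC 4 was the lowest VEC array and still stood far above every LEC array. The normalized levels were 7.55 ± 0.23 (SD, n = 3) in VECs and 3.53 ± 0.030 (SD, n = 3) in LECs, and the difference of -4.02 ± 0.12 (SE, interval -4.31 to -3.72) had an adjusted p of 2.3e-06. Of all tested probes 427 (1.26%) were further toward VECs, and of all tested genes 1.62% were over 4 log2 units lower in LECs.

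Ehd2, the EHD ATPase that holds caveolae at the surface, did not pass the test. It read 2040, 1822 and 1673 units in VECs and 2513, 1750 and 1089 in LECs (probe A_51_P343613). LEC 6 was above every VEC array in intensity and LEC 8 below all of them, and the LEC group had an SD of 0.64 on the log2 scale against 0.19 in VECs. The difference was -0.35 ± 0.32 (SE, interval -1.13 to 0.43, adjusted p = 0.37). It was 0.0033 without LEC 8 and -0.62 without LEC 6, so no direction can be given.

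Pacsin2, whose product bends the membrane at the neck, was higher in LECs. It read 8125, 7250 and 9315 units in VECs and 26633, 21680 and 26550 in LECs (probe A_66_P113487). The groups did not overlap, and the difference of 1.37 ± 0.077 (SE, interval 1.19 to 1.56) was a 2.59-fold higher signal in LECs (adjusted p = 2.5e-05).

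The windows upstream of Cavin2, the member with the largest rise, and of Ehd4, the member with the largest fall among those with a window, are shown for comparison with the caveolins (RefSeq, GRCm38.p6, 250 bases, 5′ to 3′ on the strand of the gene). They are chr1:51288876-51289125 on the + strand for Cavin2 and chr2:120154576-120154825 on the - strand for Ehd4. Capitals mark matches to the words listed above.
Cavin2: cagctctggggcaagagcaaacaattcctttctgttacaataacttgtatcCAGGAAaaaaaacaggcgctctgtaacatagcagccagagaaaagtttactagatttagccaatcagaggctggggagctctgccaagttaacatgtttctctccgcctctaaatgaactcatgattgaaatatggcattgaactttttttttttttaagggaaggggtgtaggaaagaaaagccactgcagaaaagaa
Ehd4: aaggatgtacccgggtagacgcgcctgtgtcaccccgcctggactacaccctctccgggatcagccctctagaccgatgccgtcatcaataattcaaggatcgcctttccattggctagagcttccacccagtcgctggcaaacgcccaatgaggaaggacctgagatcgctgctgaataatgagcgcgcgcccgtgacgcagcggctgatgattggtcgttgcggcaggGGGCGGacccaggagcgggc
The Ehd4 window was 61.2% GC with a GC box at -20 to -15. The Cavin2 window was 40.4% GC and held no GC box, and its single match was the ETS word CAGGAA at -199 to -194, a word found in 25.7% of all windows. No window of the 8 genes matched CCGGAA or ACAAAG, which were in 12% and 16.5% of all windows, and 1 window of Pacsin2 matched AGATAA (9.99% of all windows).

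Plvap had the largest difference toward VECs, so the ratio of every other tested member to it on the same array shifts toward LECs by construction. The size of this shift in the log2 ratio was 1.20 for Ehd4 (2.30-fold), 3.84 for Cavin3, 4.85 for Cavin1, 4.87 for Ehd2, 5.34 for Cav1, 5.50 for Cav2, 6.60 for Pacsin2 (96.8-fold) and 6.93 for Cavin2 (122-fold). Over all 36 pairs of the 9 tested members, the arrays of the 2 groups overlapped in 3, namely Cav1 with Cav2, Cav1 with Ehd2 and Cavin1 with Ehd2. The pairs reuse the same 9 genes and no share for pairs of other genes was computed. These are descriptions without a test, since an exact two-sided permutation test of 3 against 3 arrays cannot go below p = 0.1.

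The members' close relatives were read from a list of 10 genes of the same membrane-shaping families, of which 9 were tested. In LECs 3 of these were higher and 4 lower, and 2 did not pass. Of all tested genes, 34.9% were higher and 32% lower. The median difference of the relatives was -0.27 on the log2 scale, against 0.017 over all tested genes. It was the value of Pacsin1, which did not pass. Ehd1, an EHD ATPase of recycling endosomes, differed in the direction opposite to Ehd4. It read 1718, 1555 and 1801 units in VECs and 31220, 25484 and 30538 in LECs, a difference of 3.87 ± 0.061 (SE) or 14.7-fold (adjusted p = 4.9e-07). Within an array the log2 ratio of Ehd1 to Ehd4 was -5.47 to -5.03 in VECs and 2.52 to 2.62 in LECs, a change of 7.89.

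Ehd3, a further EHD ATPase, followed Ehd4 in direction, at 4378 to 5283 units in VECs and 813 to 1071 in LECs (5.75-fold lower in LECs, adjusted p = 3.5e-06). The EHD family thus held 1 gene that was higher, 2 that were lower and Ehd2, which did not pass. The probe sequences are not given in the sources used here, so how far EHD probes bind each other's transcripts was not tested.

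Pacsin3, an F-BAR protein of the Pacsin2 family, was higher in LECs by more than Pacsin2 was. It read 179, 130 and 206 units in VECs and 4255, 4418 and 4689 in LECs, a difference of 4.49 ± 0.14 (SE) or 22.5-fold (adjusted p = 2.8e-06). The log2 ratio of Pacsin3 to Pacsin2 changed by 3.12 from VECs to LECs, without overlap of the arrays. Pacsin1, the family member known best from neurons, did not pass (-0.27, adjusted p = 0.085).

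The dynamins, GTPases that cut vesicles from the membrane, were lower in LECs in all 3 cases, against 32% of all tested genes. Dnm3 was 6.46-fold lower (296 to 388 units in VECs and 52.2 to 67.6 in LECs, adjusted p = 2e-05), and with normexp background correction its difference was -1.86 in place of -2.69 on the log2 scale. The ubiquitous Dnm2 (-0.46, adjusted p = 0.001) and Dnm1 (-0.43, 0.0019) were lower by little, and without scaling between arrays neither passed (0.091 and 0.20). The median absolute difference over all tested genes was 0.46. Of the flotillins, which mark another class of membrane domains, Flot2 was 1.28-fold higher (adjusted p = 0.014) and Flot1 did not pass (0.17, adjusted p = 0.067), although it passed as higher with quantile normalization (0.18, 0.042) and without scaling (0.40, 0.016). Cavin4, the muscle cavin, was not well above background in any sample.

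**Figure D3:**
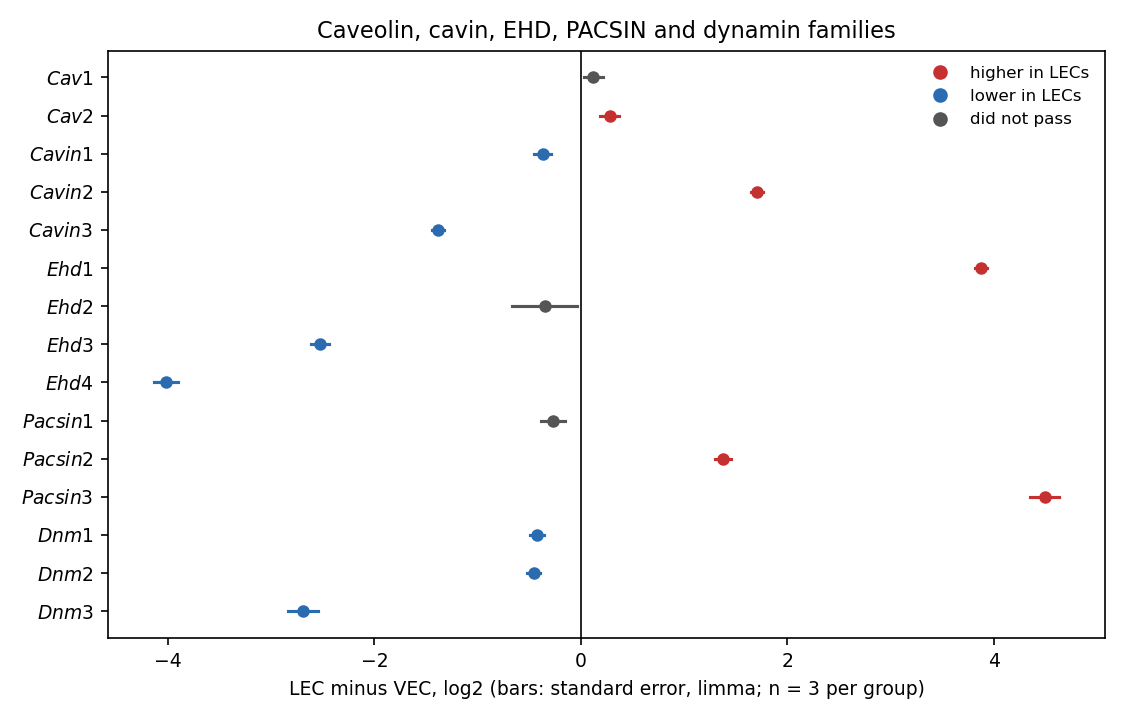
LEC minus VEC difference on the log2 scale (x axis) for the tested genes of the caveolin, cavin, EHD, PACSIN and dynamin families, with standard errors from limma (n = 3 per group), red where higher in LECs, blue where lower and gray where the test was not passed. Within the EHD and cavin families genes lay on both sides of 0, and the 3 dynamins lay to the left.

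The proteins described in endothelial caveolae were read from a list of 12 genes, all tested. In LECs 3 of them were higher and 8 lower, and 1 did not pass, with a median difference of -1.06 on the log2 scale. The shares over all tested genes were 34.9% higher and 32% lower, with a median of 0.017. Nos3, the endothelial nitric oxide synthase, read 18011, 17287 and 20088 units in VECs and 2272, 2179 and 2314 in LECs, a 9.57-fold lower signal in LECs (adjusted p = 7.6e-07). Nostrin, an adaptor that moves this enzyme between membranes, was 36.3-fold lower (922 to 1121 units in VECs and 29.4 to 38.8 in LECs, adjusted p = 7.5e-07), a log2 difference of -5.18 that was -3.76 with normexp background correction. Scarb1, the receptor for high-density lipoprotein, was 34.2-fold lower (13896 to 14981 units in VECs and 477 to 511 in LECs, adjusted p = 4.9e-07).

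The exceptions in this list were led by Aqp1, a water channel. It read 23747, 20946 and 27432 units in VECs and 190892, 173270 and 186774 in LECs, a 6.56-fold higher signal in LECs (adjusted p = 2.1e-06). Tfpi, an inhibitor of coagulation, was 2.05-fold higher (adjusted p = 0.00011), and Nosip, a binding partner of Nos3, was 1.18-fold higher (adjusted p = 0.013). Without scaling between arrays, Atp2b4 (adjusted p = 0.051) and Ptgis (0.09) no longer passed as lower.

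Of 7 genes linked to the formation of fenestrae, all tested, none was higher in LECs. Lower were 5, and 2 did not pass, with a median difference of -0.85. Over all tested genes 34.9% were higher and 32% lower, with a median of 0.017. The VEGF receptor Flt1 read 123798, 113458 and 116623 units in VECs and 2277, 2473 and 2266 in LECs, or 59.0-fold lower in LECs (adjusted p = 5.8e-07). The co-receptor Nrp1 was 39.8-fold lower (52853 to 60688 units in VECs and 1600 to 1710 in LECs, adjusted p = 5.5e-07). Both genes are also in the blood vascular marker list. Kdr, the main signaling receptor for VEGF in blood vessels, was lower by 1.80-fold (57751 to 69636 units in VECs and 36027 to 45326 in LECs, adjusted p = 0.00085).

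Moesin (Msn), a linker between membrane and actin, was 1.95-fold lower in LECs (adjusted p = 7.8e-05). Vegfa, the ligand, was 1.23-fold lower (adjusted p = 0.023), and without scaling between arrays it did not pass (0.70). Cttn and Anxa2, which bind actin and membrane, had differences of -0.068 and 0.055 and did not pass. The difference of Cttn turned to 0.16 without scaling, and Anxa2 passed as higher in LECs with quantile normalization (0.20, adjusted p = 0.018).

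Genes of transcytosis and vesicle fusion, 12 in the list and all tested, divided into 5 higher in LECs, 6 lower and 1 that did not pass. Among all tested genes 34.9% were higher and 32% lower. The median difference of the list was -0.086, against 0.017 over all tested genes. Fcgrt, the heavy chain of the Fc receptor that carries IgG across endothelium, read 3243, 3316 and 3353 units in VECs and 11903, 8458 and 10861 in LECs, or 2.66-fold higher in LECs (adjusted p = 7.1e-05). Src, a kinase that phosphorylates caveolin-1, was at least 2.50-fold higher in LECs (33.8 to 46.8 units), with signals not well above background in any VEC sample (adjusted p = 0.0056). For such a gene the bound sets the mean normalized LEC signal against the lowest signal well above background on each VEC array, or the gene's own VEC signal where that was higher. Src entered the test through the LEC arrays alone, and with normexp background correction its difference was 0.31 on the log2 scale (adjusted p = 0.0032), less than the bound. Mfsd2a, a lipid transporter that restrains caveolar transcytosis in brain capillaries, was 1.85-fold higher at low signal (26.9 to 46.7 units in VECs and 68.0 to 99.6 in LECs, adjusted p = 0.0092), and with normexp background correction it no longer passed (0.22 on the log2 scale, adjusted p = 0.091).

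Acvrl1, a receptor also described in the transcytosis of low-density lipoprotein, was 4.96-fold lower in LECs (20917 to 23408 units in VECs and 4557 to 5881 in LECs, adjusted p = 9.1e-06). The kinase Fyn was 1.67-fold lower (adjusted p = 0.00029) and the vesicle SNARE Vamp3 1.53-fold lower (adjusted p = 0.00043). The target SNARE Snap23 was lower in LECs (-0.22 on the log2 scale, adjusted p = 0.018), a difference that was 0.0052 without scaling between arrays and did not pass with quantile normalization (-0.13, adjusted p = 0.11). Rab5a and Nsf also lost their calls without scaling. The differences in fusion machinery were thus small beside those of Plvap and Ehd4.

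Values of other genes place Plvap and Cav1 among all genes. For each, the 5 genes with the nearest profile over the 6 arrays were taken from 13302 named genes well above background on all arrays, by the Euclidean distance of log2 values after subtracting each gene's mean. Nearest to Plvap were Kcnq1, a potassium channel subunit, at a distance of 0.11, Kitl (stem cell factor) at 0.15, Plscr1 at 0.17, Camkk1 at 0.20 and Fam89a at 0.20, whose LEC minus VEC differences were -5.15, -5.15, -5.14, -5.13 and -5.21. Nearest to Cav1 were Esrra at 0.062, Itgb1bp1 at 0.083, Tmco1 at 0.086, Gde1 at 0.10 and 2610524H06Rik at 0.10, none of which passed the test. A profile over 6 arrays in 2 groups mostly records the difference between the groups, so the lists say nothing of shared function.

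Genes of other cell types that carry caveolae moved in part with the groups. The counts in these lists stand beside 34.9% of all tested genes that were higher in LECs and 32% that were lower. For 9 smooth muscle and pericyte markers the summed signal was 39.7 to 48.1 in VECs and 81.4 to 92.0 in LECs, with 1 gene higher in LECs, 3 lower and 5 that did not pass. The higher sum came with the potassium channel gene Kcnj8 (124 to 143 units in VECs and 20991 to 23754 in LECs), while the contractile genes Acta2 and Myh11 were lower in LECs. Of 6 fibroblast markers, 4 were tested and 3 were higher in LECs, with a summed signal of 0.899 to 1.52 in VECs and 2.18 to 2.95 in LECs. The 3 were Dcn (27.0 to 96.5 units in VECs and 314 to 450 in LECs, 6.33-fold), Col3a1 (2.78-fold) and Col1a1 (1.67-fold). Pdgfra was not well above background in any LEC sample. All 4 enteric glia markers were higher in LECs (0.309 to 0.464 in VECs and 2.51 to 3.16 in LECs).

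The 3 tested erythroid markers were all lower in LECs (14.3 to 35.3 in VECs and 0.367 to 1.99 in LECs). For this list and the next ones too, the shares over all tested genes were 34.9% higher and 32% lower. Of 7 leukocyte markers, 5 were tested, 2 were higher and 3 lower (77.1 to 82.8 and 67.1 to 71.9). This sum came mainly with Itgam (26555 to 29676 units in VECs and 25418 to 30509 in LECs). Ptprc, the gene of CD45, was not tested (5.68 to 18.6 units in VECs and 23.9 to 37.5 in LECs). Of 6 epithelial markers, 3 were tested, with 1 higher, 1 lower and 1 that did not pass (2.90 to 3.83 and 5.29 to 6.51). The epithelial sum came mainly with Lgals4 (737 to 961 units in VECs and 1970 to 2254 in LECs), and Epcam and Cdh1 were not tested. Of 6 striated muscle markers, 3 were tested, again 1 in each class (1.49 to 1.67 and 1.20 to 1.46). Of 5 adipocyte markers, 1 was tested and was higher (0.622 to 0.646 and 0.726 to 0.863), with Plin1 and Cidec not well above background in any sample. Of 4 mesothelial markers, 1 was tested and was lower (0.415 to 0.559 and 0.102 to 0.122), and Msln, Upk3b and Wt1 were not well above background in any sample. The part of these cells in the values of the 9 tested members was not tested.

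The differences were recomputed under 20 alternative settings. For Plvap (-5.31 to -5.00 on the log2 scale), Ehd4 (-4.15 to -3.79), Cavin3 (-1.41 to -1.16), Cavin2 (1.69 to 1.94) and Pacsin2 (1.34 to 1.60) the direction and the call were the same in all 20. Some settings, such as other filters on dim probes or another variance model, could change only the p-values of these genes and not their differences. Taken from the same VEC samples, the 5 differences were also alike for LEC 6 and for the mean of LEC 7 and LEC 8. They were -5.24 and -5.21 for Plvap and 1.70 and 1.71 for Cavin2. The slide row of LEC 7 and LEC 8 held no VEC sample, so no difference within that row could be taken. Cav1 had values between 0.035 and 0.35 and passed in 1 of the 20, with the slide row as a block, where LEC 6 alone gave the value. Cav2, Cavin1 and Ehd2, whose differences were small, also changed their call or direction in at least 1 setting.

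**Figure D4:**
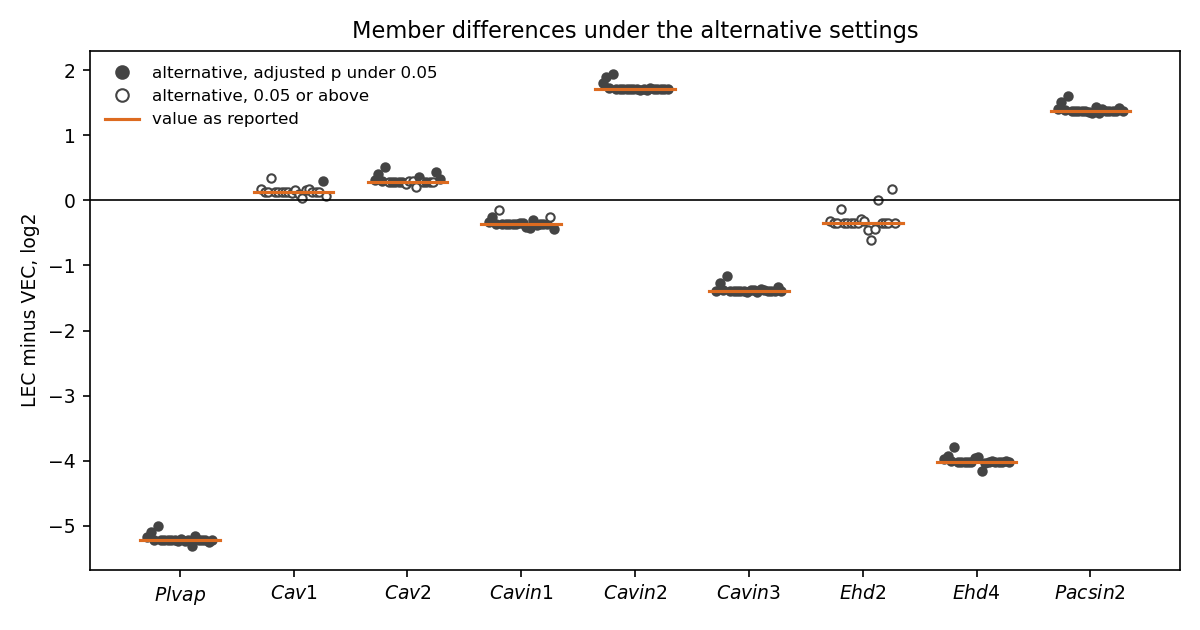
LEC minus VEC difference on the log2 scale (y axis) of the 9 tested genes under each of 20 alternative settings (points, filled where the adjusted p was under 0.05) and as reported (orange line). The points of Plvap, Ehd4, Cavin3, Cavin2 and Pacsin2 lay close to the line and were filled, those of Ehd2 were open, those of Cav1 were open but for 1, and those of Cav2 and Cavin1 were of both kinds.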

How the data were processed

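The authors deposited, for each array, spot intensities from Agilent Feature Extraction 12.0.3.1 (SurePrint G3 Mouse arrays, 1 color), from which that software had subtracted the background. They were not yet scaled between arrays. The authors also deposited a log2 table. For 100% of the probes it equaled the log2 intensity less a fixed amount for the array (within 0.01), with medians of -3.19 to -3.13. It served as an alternative.

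Here, log2 intensities were taken, outlier spots were dropped, repeated spots of a probe were averaged and each array's 75th percentile was subtracted. A probe entered the test if either group had it well above background on its 3 arrays. The test was that of limma 3.58.1 (R 4.3.3), a linear model with moderated variances and no intensity trend, two-sided, at a Benjamini-Hochberg adjusted p under 0.05. The number of arrays, 3 per group, limits the precision. In data simulated for this comparison with 33776 probes, 50 probes were changed at each fold size. The fit recovered 49 of them at 16-fold, 48 at 4-fold, 34 at 2-fold and 15 at 1.41-fold, with 5 false among 151 calls. Far more probes passed in the real comparison (10537 higher and 11066 lower), so these rates need not hold for it.

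Names came from the GRCm38.p6 annotation by RefSeq accession, versions ignored (32994 of 56605 probes). Among the tested probes of a gene, the one with the highest mean stood for it. The annotation and the promoter windows served for names, neighbors and sequences only. Motif words were searched as exact letters on both strands of the 250 bases before each start.

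Named were all 10 genes with every probe, up to 3 genes per direction with the largest differences from each list of related genes, genes that a sentence on a member needed, and the 5 nearest profiles to Plvap and to Cav1. Kcnj8, Acta2, Myh11, Atp2b4, Ptgis, Snap23, Rab5a, Nsf, Kdr, Vegfa, Cttn, Anxa2, Dnm1, Flot1 and Cavin4 were named after their values were seen. The same holds for Itgam, Ptprc, Lgals4, Epcam, Cdh1, Emcn, Acta1, Myl1, Actn2, Myh6, Dcn, Col3a1 and Col1a1. The members and all lists were chosen with earlier results of these data known. All arrays shared 1 slide and 1 scan day, so the row of the slide was the batch examined. The groups share no replicate numbers, so no pairing was made.

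The alternatives were normexp background correction (offset 50, on median signals, as the planned mean signals were not used here), 3 other scalings, 2 other filters, outlier spots kept, a floor, the deposited log2 table, the methods' one-way test, a trend of variance with intensity, the mean of a gene's probes, the slide row as a block and each array left out. The study's PCR, protein, imaging and transplantation experiments were not analysed here, and an item withheld for evaluation is left out.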

Additional observations from a re-analysis of the deposited data

How the results depend on the processing

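Over the 20 alternatives, 2 to 4 members were higher in LECs and 3 to 4 were lower. Without scaling between arrays the median difference of all tested genes rose by 0.23 on the log2 scale, and 6916 probes were lower in LECs in place of 11066, while 12922 in place of 10537 were higher. Cavin1 then gave -0.14 (adjusted p = 0.40). Over all alternatives, 8444 to 12922 probes were higher and 6916 to 11947 lower. Cav2 no longer passed without a filter on dim probes (0.28, adjusted p = 0.10) and by the methods' one-way test after Benjamini-Hochberg adjustment (0.062). Its other bright probe (A_51_P279552) passed with the slide row as a block (0.44, adjusted p = 0.034) and without LEC 7 (0.32, 0.041). With that block Cav1 passed (0.30, adjusted p = 0.0498), Cavin1 gave -0.26 (adjusted p = 0.10) and the direction of Ehd2 turned (0.17, adjusted p = 0.72). Leaving out 1 array at a time gave -0.62 to 0.0033 for Ehd2, with the turn in sign without LEC 8, and -0.080 to 0.066 for the second Cav1 probe, below 0 without VEC 2 (-0.00045) and without LEC 6. The cause was not tested. Groups share no replicate numbers, so no paired analysis was possible because the samples carry no common number. Signals near 12.1 to 25.1 units, such as those of Cav3, could not be read.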
